A study of Mus musculus with 10 samples.

Results

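The asialoglycoprotein receptor subunits Asgr1 and Asgr2 and the liver collectins Mbl1, Mbl2, Colec10 and Colec11 were followed in fetal mouse liver. These 6 genes were chosen by name as the receptor and the soluble lectins of liver, with their CPM and the genotype difference in these libraries already known, and were found among 55401 genes in the count table, of which 14098 had enough reads to be tested. All 6 were among the genes tested. The libraries came from livers of female fetuses at E18.5, shortly before birth. The 5 Mir483Pat-KO fetuses carried a deletion of the imprinted microRNA gene Mir483 inherited from the father, and the 5 WT littermates carried none. The deletion was constitutive, so it was present in all cell types of the fetus: it had been made with Cre in C57BL/6N embryonic stem cells, a pair of independent clones was injected, and the colony was kept by crosses to C57BL/6J. Which clone gave which fetus was not given in the sources used here. The deletion removes a microRNA that lies within Igf2, the gene of a fetal growth factor.

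The asialoglycoprotein receptor sits on the hepatocyte surface, where it binds glycoproteins whose sugar chains end in exposed galactose or N-acetylgalactosamine and carries them to lysosomes. Asgr1 encodes the major subunit and Asgr2 the minor subunit of this C-type lectin. Collectins are secreted lectins with a collagen-like stalk. They bind sugars on microbes, and the mannose-binding lectins and collectins recruit serine proteases that start the lectin pathway of complement.

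Library totals ranged from 10831350 to 14765880 counts. The Mir483 row held 10 to 22 counts in each WT library and 0 counts in each Mir483Pat-KO library. These mRNA libraries do not measure the mature microRNA. All 10 hepatocyte markers were detected, and their summed level was 223246 to 250380 CPM in WT livers. CPM are counts scaled to a common library size with the trimmed mean of M-values (TMM). The numbers in the sample descriptions fell into a lower range (WT replicates 1 to 4 and Mir483Pat-KO replicates 1 and 2) and an upper range (WT replicate 5 and Mir483Pat-KO replicates 3 to 5). What these numbers record was not stated, so values within each range are given beside the pooled ones.

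The sequences of the deleted microRNA are shown because its seed defines the sites through which it could pair with an mRNA. The capitals mark bases 2 to 8, the seed, in the RefSeq mature sequences (GRCm38.p6, chromosome 7, minus strand, 142654932 to 142654952 for miR-483-3p and 142654968 to 142654989 for miR-483-5p).
miR-483-3p: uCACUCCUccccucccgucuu
miR-483-5p: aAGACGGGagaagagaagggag
The complement of the miR-483-3p seed, AGGAGTG, was present in the longest annotated 3′ UTR of 12.6% of the 12875 tested genes that had one. It was present in 0 of the 6 members. The complement of the miR-483-5p seed, CCCGTCT, was present in 3.28% of those genes and also in 0 of the 6 members. The 3′ UTRs searched were 251 bases long for Asgr1, 306 for Asgr2, 725 for Mbl1, 163 for Mbl2, 3749 for Colec10 and 484 for Colec11. A missing match says only that these letters were not in these UTRs.

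The receptor genes are neighbours. In GRCm38 (GENCODE M21), Asgr1 (ENSMUSG00000020884) lies on chromosome 11 from 70054085 to 70057894 and Asgr2 (ENSMUSG00000040963) from 70092644 to 70106187, both on the plus strand. They are 34749 bp apart with 0 annotated genes between them. Their promoter windows are shown because both genes were lower in Mir483Pat-KO livers. Each runs from 250 bases before to 50 bases after a RefSeq start, on the plus strand of GRCm38.p6. The reference held 2 windows for Asgr1, and the 1 nearest the GENCODE start, 39 bp from it, is shown. The capitals mark the only match found in a shown window to 5 motifs searched on both strands.
Asgr1, chr11:70053874-70054173: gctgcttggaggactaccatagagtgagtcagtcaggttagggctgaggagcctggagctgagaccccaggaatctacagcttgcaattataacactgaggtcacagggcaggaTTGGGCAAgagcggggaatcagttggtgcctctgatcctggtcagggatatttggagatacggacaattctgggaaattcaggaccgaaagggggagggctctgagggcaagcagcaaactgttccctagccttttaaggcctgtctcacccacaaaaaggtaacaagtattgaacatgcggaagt
Asgr2, chr11:70092394-70092693: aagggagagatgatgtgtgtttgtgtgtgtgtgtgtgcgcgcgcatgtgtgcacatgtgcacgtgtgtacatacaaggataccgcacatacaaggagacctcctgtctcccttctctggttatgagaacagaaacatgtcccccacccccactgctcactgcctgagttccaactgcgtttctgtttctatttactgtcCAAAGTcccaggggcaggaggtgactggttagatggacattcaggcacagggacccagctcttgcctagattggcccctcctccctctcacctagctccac
The motifs were HNF1 (GTTAAT), HNF4 (CAAAGT), C/EBP (TTGCNNAA), FOXA (TGTTTAC) and the TATA box (TATAAA), 4 of them named for liver-enriched transcription factors. The Asgr1 window held a C/EBP match, a motif present in 10.8% of 32851 windows of the reference, and the Asgr2 window an HNF4 match, present in 14.4%. The windows shown therefore shared none of the 5 motifs, and the other Asgr1 window was not searched. Among the other members with a window, Mbl2 held an HNF4 match and Mbl1 and Colec11 held none.

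Asgr1, the major receptor subunit, was the member with the most negative fold change. Its level in WT replicates 1 to 5 was 122, 127, 140.3, 131 and 138 CPM. In Mir483Pat-KO replicates 1 to 5 it was 96.3, 73.9, 89.6, 90.4 and 79.1 CPM. Every Mir483Pat-KO library was below every WT library. The WT mean was 132 ± 7.43 CPM and the Mir483Pat-KO mean 85.9 ± 9.09 CPM (SD, n = 5 each), and the log2 fold change was -0.62 (SE 0.077), which is 65.2% of the WT level. Within the lower number range, WT livers had 122 to 140.3 CPM and Mir483Pat-KO livers a mean of 85.1 CPM. Within the upper range, the single WT liver had 138 CPM and the Mir483Pat-KO livers 79.1 to 90.4 CPM. The difference was therefore present in both ranges.

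Asgr2, the minor subunit, was lower by a smaller amount. WT replicates 1 to 5 had 44.8, 42.6, 45.6, 45.2 and 51.1 CPM. Mir483Pat-KO replicates 1 to 5 had 33.5, 36.7, 34.6, 36.8 and 38.04 CPM. Here too the groups did not overlap. The means were 45.9 ± 3.13 CPM and 35.9 ± 1.83 CPM (SD, n = 5 each), with a log2 fold change of -0.35 (SE 0.070), or 78.3% of WT. In the lower number range the WT livers had 42.6 to 45.6 CPM against a Mir483Pat-KO mean of 35.1 CPM, and in the upper range the single WT liver had 51.1 CPM against 34.6 to 38.04 CPM.

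Asgr1 and Asgr2 were thus 2 of 6 members whose groups did not overlap with the lower values in Mir483Pat-KO, where 3.26% of all genes tested did so. They were also the 2 members with an adjusted p under 0.05 in the edgeR quasi-likelihood fit across all genes, where 2.76% of genes tested were lower and 2.43% higher at that threshold. Because this contrast was known when the genes were listed, nothing is read from these counts and no p-value is given for a member. In the lower number range alone, 0 members passed that threshold, with 4 WT and 2 Mir483Pat-KO libraries. In these bulk libraries, fewer hepatocytes and less receptor mRNA per hepatocyte cannot be told apart. Of the 10 hepatocyte markers, all 10 had a negative fold change, with a median log2 fold change of -0.14 against 0.0042 over all genes tested, and 2 of 10, Apoa1 and Cps1, fell (edgeR, adjusted p = 0.0262 and 0.00407). The groups did not overlap for 3 of the 10, with the lower values in Mir483Pat-KO, and for 0 with the higher values there. The summed hepatocyte marker level was 200323 to 230798 CPM in Mir483Pat-KO livers, which overlaps the WT range. The most abundant markers make up most of this sum. The erythroid markers had a median log2 fold change of 0.29. Hbb-bs, an adult beta-globin gene, rose (edgeR, adjusted p = 0.0120), and the summed level of the list was 15953 to 20575 CPM in WT livers against 18670 to 26587 CPM in Mir483Pat-KO livers, with overlap. No detected marker of either list was at 0 in all libraries. The part of these marker shifts in the receptor result was not tested.

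**Figure D1:**
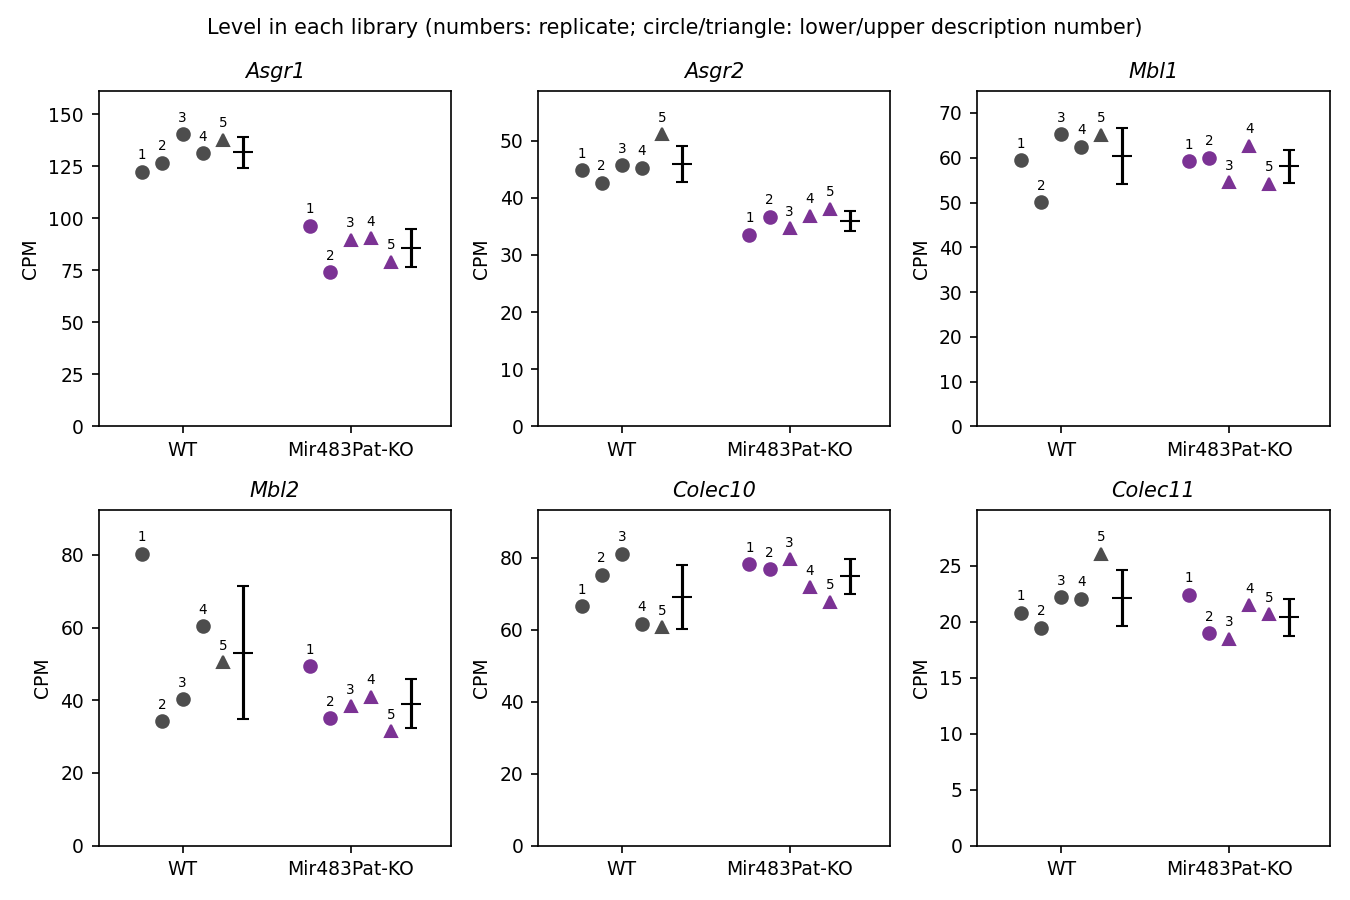
Level of each member in each library, in CPM on an axis from 0. Grey points are WT and purple points Mir483Pat-KO, the number beside a point is the replicate, circles and triangles are the lower and upper description number ranges, and the bars are the mean ± SD (n = 5). The Asgr1 points of the groups are separated, at 122 CPM or more for WT and 96.3 CPM or less for Mir483Pat-KO, as are those of Asgr2, whereas the points of the other 4 members overlap.

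The mannose-binding lectins showed another picture. Mbl1 (ENSMUSG00000037780, chromosome 14, 41151458 to 41159601, plus strand) encodes mannose-binding lectin A. Its level was 59.4, 50.02, 65.2, 62.5 and 65.1 CPM in WT replicates 1 to 5 and 59.2, 59.97, 54.5, 62.7 and 54.2 CPM in Mir483Pat-KO replicates 1 to 5. The Mir483Pat-KO values all lay inside the WT range. The means were 60.4 ± 6.29 and 58.1 ± 3.68 CPM (SD, n = 5 each) and the log2 fold change was -0.059 (SE 0.079). Within the lower number range the WT mean was 59.3 CPM and the Mir483Pat-KO mean 59.6 CPM, and within the upper range the single WT liver had 65.1 CPM against a mean of 57.1 CPM.

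Mbl2 (ENSMUSG00000024863, chromosome 19, 30232942 to 30239687, plus strand) encodes mannose-binding lectin C and was the most variable member. WT replicates 1 to 5 had 80.4, 34.2, 40.3, 60.3 and 50.5 CPM, a coefficient of variation of 34.2%. Mir483Pat-KO replicates 1 to 5 had 49.3, 35.0, 38.4, 41.0 and 31.5 CPM, a coefficient of variation of 17.3%. Only 1 of 5 Mir483Pat-KO libraries was below all WT libraries, while all 5 were below the WT mean. The means were 53.1 ± 18.2 and 39.0 ± 6.77 CPM (SD, n = 5 each), with a log2 fold change of -0.44 (SE 0.18). The Mir483Pat-KO mean was the lower one in both number ranges, at 42.2 against 53.8 CPM in the lower range and 37.0 against 50.5 CPM in the upper. Without WT replicate 1, the highest library, the log2 fold change was -0.26. The fold change of Mbl2 was thus larger in size than that of Asgr2 but had an SE of 0.18 against 0.070.

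The groups overlapped for both remaining collectins, Colec10 and Colec11. Colec10 (ENSMUSG00000038591, chromosome 15, 54410774 to 54466358, plus strand) encodes collectin liver 1. It had 66.4, 75.2, 81.1, 61.7 and 60.6 CPM in WT replicates 1 to 5 and 78.1, 76.8, 79.6, 71.8 and 67.8 CPM in Mir483Pat-KO replicates 1 to 5. The groups overlapped, with 4 of 5 Mir483Pat-KO libraries above the WT mean. The means were 69.0 ± 8.89 and 74.8 ± 4.90 CPM (SD, n = 5 each) and the log2 fold change was 0.12 (SE 0.085). Its Mir483Pat-KO mean was the higher one in both number ranges, at 77.5 against 71.1 CPM in the lower range and 73.1 against 60.6 CPM in the upper. Its transcript has the lowest GC content of the 6, at 40.9%, and with offsets for GC content and length the log2 fold change was -0.024.

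Colec11 (ENSMUSG00000036655, chromosome 12, 28594173 to 28623377, minus strand) encodes collectin kidney 1, which pairs with collectin liver 1 in blood. It had 20.8, 19.4, 22.2, 22.0 and 26.1 CPM in WT replicates 1 to 5 and 22.4, 19.0, 18.46, 21.5 and 20.7 CPM in Mir483Pat-KO replicates 1 to 5. Here 2 of 5 Mir483Pat-KO libraries were below all WT libraries and the groups overlapped. The means were 22.1 ± 2.48 and 20.4 ± 1.66 CPM (SD, n = 5 each), with a log2 fold change of -0.12 (SE 0.093). Without WT replicate 5, the highest library, the log2 fold change was -0.051. In the lower number range its means were 21.1 CPM for WT and 20.7 CPM for Mir483Pat-KO, and in the upper range 26.1 and 20.2 CPM. Stellate cells are a source of collectins in liver. The stellate and mesenchymal markers had a summed level of 622 to 1154 CPM in WT livers against 574 to 876 CPM in Mir483Pat-KO livers, with none at 0 in all libraries. Their median log2 fold change was -0.39, with 8 of 10 negative and 0 of 10 past the threshold by edgeR, and their part in the collectin values was not tested.

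Levels of different genes were compared as CPM per kb of merged exons. In WT livers Asgr1 had the highest level, 82.7 ± 4.67 CPM per kb, followed by Mbl2 at 48.8 ± 16.7, Mbl1 at 38.5 ± 4.01, Asgr2 at 29.1 ± 1.99, Colec10 at 15.0 ± 1.94 and Colec11 at 13.6 ± 1.53 CPM per kb (SD, n = 5). The ranges of Mbl2 and Mbl1 and of Colec10 and Colec11 overlapped, and in both pairs the first gene was the higher one in 3 of 5 libraries, so these neighbours were not separated beyond their spread. The ranges of Mbl1 and Asgr2 also overlapped, but Mbl1 was above Asgr2 within each of the 5 libraries. In Mir483Pat-KO livers Asgr1 was again highest, at 53.97 ± 5.71 CPM per kb. Mbl1 followed at 37.0 ± 2.34, Mbl2 at 35.8 ± 6.21, Asgr2 at 22.8 ± 1.16, Colec10 at 16.3 ± 1.07 and Colec11 at 12.6 ± 1.03 CPM per kb (SD, n = 5). Only Mbl1 and Mbl2 overlapped there.

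The balance of the receptor subunits was read as the ratio of their levels per kb within a library. In WT livers the Asgr1 to Asgr2 ratio was 2.84 ± 0.159 (SD, n = 5), with a range of 2.67 to 3.04. In Mir483Pat-KO livers it was 2.38 ± 0.354, with 2.84, 1.996, 2.56, 2.43 and 2.06 in replicates 1 to 5. Replicate 1 was within the WT range and the other 4 were below it. The Mbl2 to Mbl1 ratio was 1.27 ± 0.426 in WT and 0.968 ± 0.150 in Mir483Pat-KO, and the Colec10 to Colec11 ratio was 1.12 ± 0.222 and 1.31 ± 0.162 (SD, n = 5 each). Both of these ratios overlapped between the groups.

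**Figure D2:**
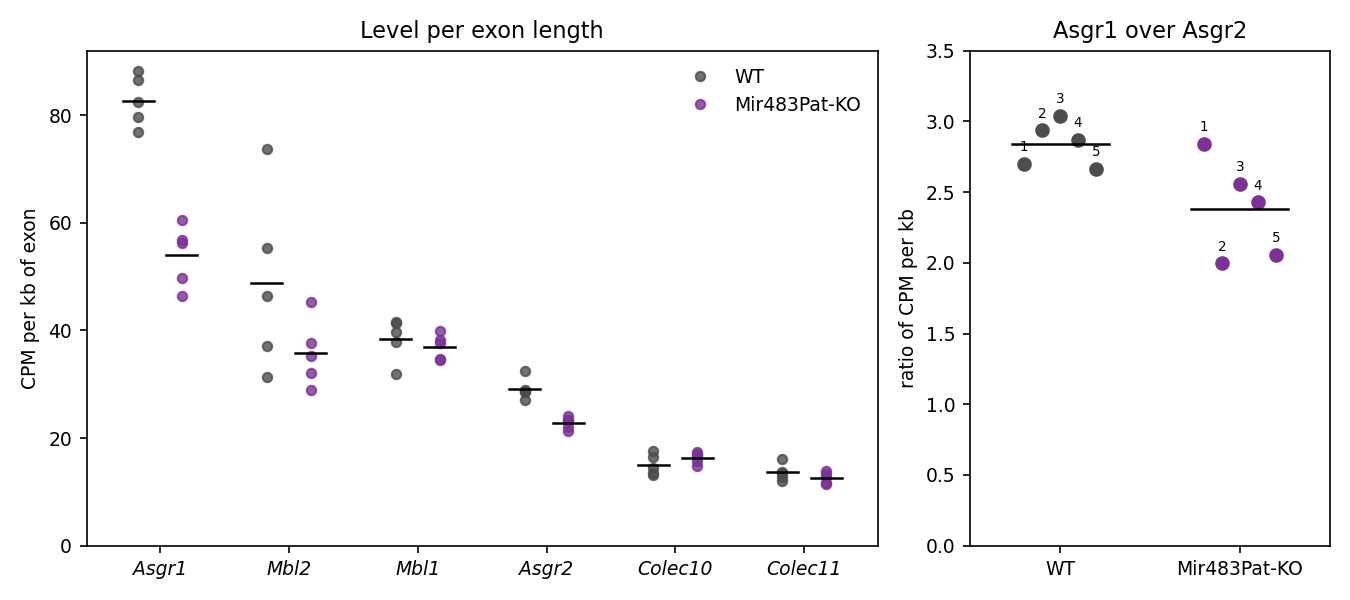
Left, level of each member in CPM per kb of exon, one point per library, with the mean as a line (grey, WT; purple, Mir483Pat-KO; n = 5 each). Right, ratio of the Asgr1 to the Asgr2 level per kb in each library, with replicate numbers and the mean as a line. Asgr1 is highest in both groups, and the mean ratio is 2.84 for WT and 2.38 for Mir483Pat-KO livers.

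Patterns over the 10 libraries were compared by the root mean square difference of log2 CPM after each gene's own mean was removed. Among 12544 genes, those closest to Asgr1 were Tor3a (0.077), Adar (0.099) and Csad (0.10), and those closest to Asgr2 were Hdac5 (0.060), Nacc2 (0.064) and Plxnb1 (0.067). The closest genes to Mbl1 were G6pc3, Fbh1 and Pdcl3, to Colec10 Srsf11, Pias2 and Rdx, and to Colec11 Gna11, Dhrs4 and Nhlrc3, all at 0.069 or less. For Mbl2 they were Hao1 at 0.17, Ces1d at 0.20 and Cxcl10 at 0.21. This difference grows with a gene's own spread, which was 0.39 for Mbl2, 0.33 for Asgr1 and 0.19 for Asgr2 and 0.12 to 0.14 for the other 3, so distances are not comparable between members. It also holds the genotype difference: the 3 genes closest to Asgr1 had log2 fold changes of -0.64 to -0.51. Between members, the difference was smallest for Mbl1 and Colec11 (0.10) and largest for Mbl2 and Colec10 (0.48), and Asgr1 and Asgr2 differed by 0.20.

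Genes that act beside the receptor and the collectins were tested in the same fit. The lists were chosen with earlier results of these data known, so their counts and p-values are not an independent test. Of 60 such genes in 4 lists, 57 were tested and 7 fell in Mir483Pat-KO livers (edgeR quasi-likelihood, adjusted p under 0.05), where 2.76% of all genes tested were lower at that threshold. By edgeR 0 rose, with 6 higher and 18 lower at an unadjusted p under 0.05, and DESeq2 called 2 higher. The groups lay apart for 5 of the 57 with the lower values in Mir483Pat-KO and for 2, Clec7a and Cmas, with the higher values there, against 3.26% and 3.34% of all genes tested. The median log2 fold change of the 57 was -0.094, against 0.0042 over all genes tested. In the lower number range alone, 0 of the 7 passed, and all 7 kept a negative fold change.

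In the lectin pathway of complement, 2 of 9 genes fell, and the median log2 fold change was -0.24. C4b, which the pathway's proteases cleave, fell from 612 ± 41.7 to 448 ± 89.6 CPM (SD, n = 5 each; log2 fold change -0.45, SE 0.11, edgeR adjusted p = 0.0302), and reads may be shared with its near-identical neighbour C4a. C3, the central complement protein, fell from 9530 ± 521 to 7782 ± 828 CPM (log2 fold change -0.29, SE 0.081, edgeR adjusted p = 0.0473). The groups did not overlap for either gene. With offsets for GC content and length the log2 fold changes were -0.36 for C4b and -0.22 for C3, and neither passed (edgeR adjusted p = 0.0549 and 0.110). C3 also missed the threshold with the number range as a covariate, although its fold change stayed at -0.29 (log2, edgeR adjusted p = 0.0512), and passed in 8 of 20 alternatives, with an adjusted p from 0.00458 to 0.394. The proteases that bind collectins did not pass: Masp1 had a mean of 198 CPM in WT and 193 CPM in the knockout (log2 fold change -0.039, SE 0.070, edgeR adjusted p = 0.789) and Masp2 137 and 127 CPM (-0.11, SE 0.061, edgeR adjusted p = 0.300).

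In the list of other endocytic receptors and their adaptors, 3 of 12 fell and 11 of 12 had a negative fold change, with a median of -0.24. Not all 12 are particular to hepatocytes: Stab1 and Stab2 also stand among the sinusoidal endothelial markers, of which 0 of 10 passed by edgeR with a median of -0.13, and Tfrc, the transferrin receptor and the 1 gene with a positive fold change, is abundant in erythroid cells. Lrp1, a large receptor for lipoprotein remnants and protease complexes, fell from 425 ± 50.4 to 315 ± 51.1 CPM (log2 fold change -0.43, SE 0.11, edgeR adjusted p = 0.0310) without overlap. Fcgrt, the neonatal Fc receptor that recycles albumin and IgG, fell from 84.4 ± 9.33 to 65.9 ± 4.53 CPM (-0.36, SE 0.081, edgeR adjusted p = 0.0198), also without overlap. Scarb1, the receptor for high-density lipoprotein, fell from 259.8 ± 14.6 to 213 ± 17.6 CPM (-0.29, SE 0.071, edgeR adjusted p = 0.0308), with groups that overlapped. Lrp1 and Scarb1 each passed in 13 of 20 alternatives, and Fcgrt in 17. The hepatocyte marker values given with the receptor result apply here as well, and their part was not tested.

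Of the other carbohydrate-binding lectins, 20 of 23 were tested, 2 fell, and the median log2 fold change was -0.043. Lgals4, a galactose-binding lectin, fell from 20.7 ± 3.43 to 14.4 ± 1.13 CPM (log2 fold change -0.52, SE 0.11, edgeR adjusted p = 0.0138) without overlap, and reads may be shared with its close paralog Lgals6. Clec4f, a galactose-binding lectin of Kupffer cells, fell from 110.1 ± 22.1 to 80.2 ± 11.3 CPM (-0.46, SE 0.12, edgeR adjusted p = 0.0416), with overlap. In the robust fit its log2 fold change stayed at -0.46 with an adjusted p by edgeR of 0.0575, and it passed in 12 of 20 alternatives. Clec4f is also 1 of 10 macrophage markers, of which C1qa fell too (edgeR adjusted p = 0.0389). Of the 10, 6 had a negative and 4 a positive fold change, with a median log2 value of -0.14, and the summed macrophage marker level was 832 to 1041 CPM in WT livers against 734 to 964 CPM in Mir483Pat-KO livers. None of these markers was at 0 in all libraries, and their part in the Clec4f value was not tested.

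The genes that cap or trim the sugar chains, and so set whether galactose is exposed to the receptor, did not pass the test. By edgeR 0 of 16 did, 11 of 16 had a positive fold change and the median was 0.060. St6gal1, which adds sialic acid to galactose, had 329 ± 24.7 CPM in WT livers against 335 ± 22.8 CPM in the Mir483Pat-KO livers (SD, n = 5 each; log2 fold change 0.026, SE 0.073, edgeR adjusted p = 0.874). Cmas, which activates sialic acid, was picked out after its values were seen. It had 123 ± 8.80 CPM in WT livers against 143 ± 11.1 CPM in the Mir483Pat-KO livers, without overlap (log2 fold change 0.22, SE 0.073, edgeR adjusted p = 0.0860).

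The 7 calls rested on single libraries to different degrees. Without Mir483Pat-KO replicate 2 or 4, 1 of the 7 was kept, without WT replicate 4 or 5, 2 of 7, and without WT replicate 3 or Mir483Pat-KO replicate 3, 4 of 7. Lgals4 was the call that none of these 10 omissions removed.

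**Figure D3:**
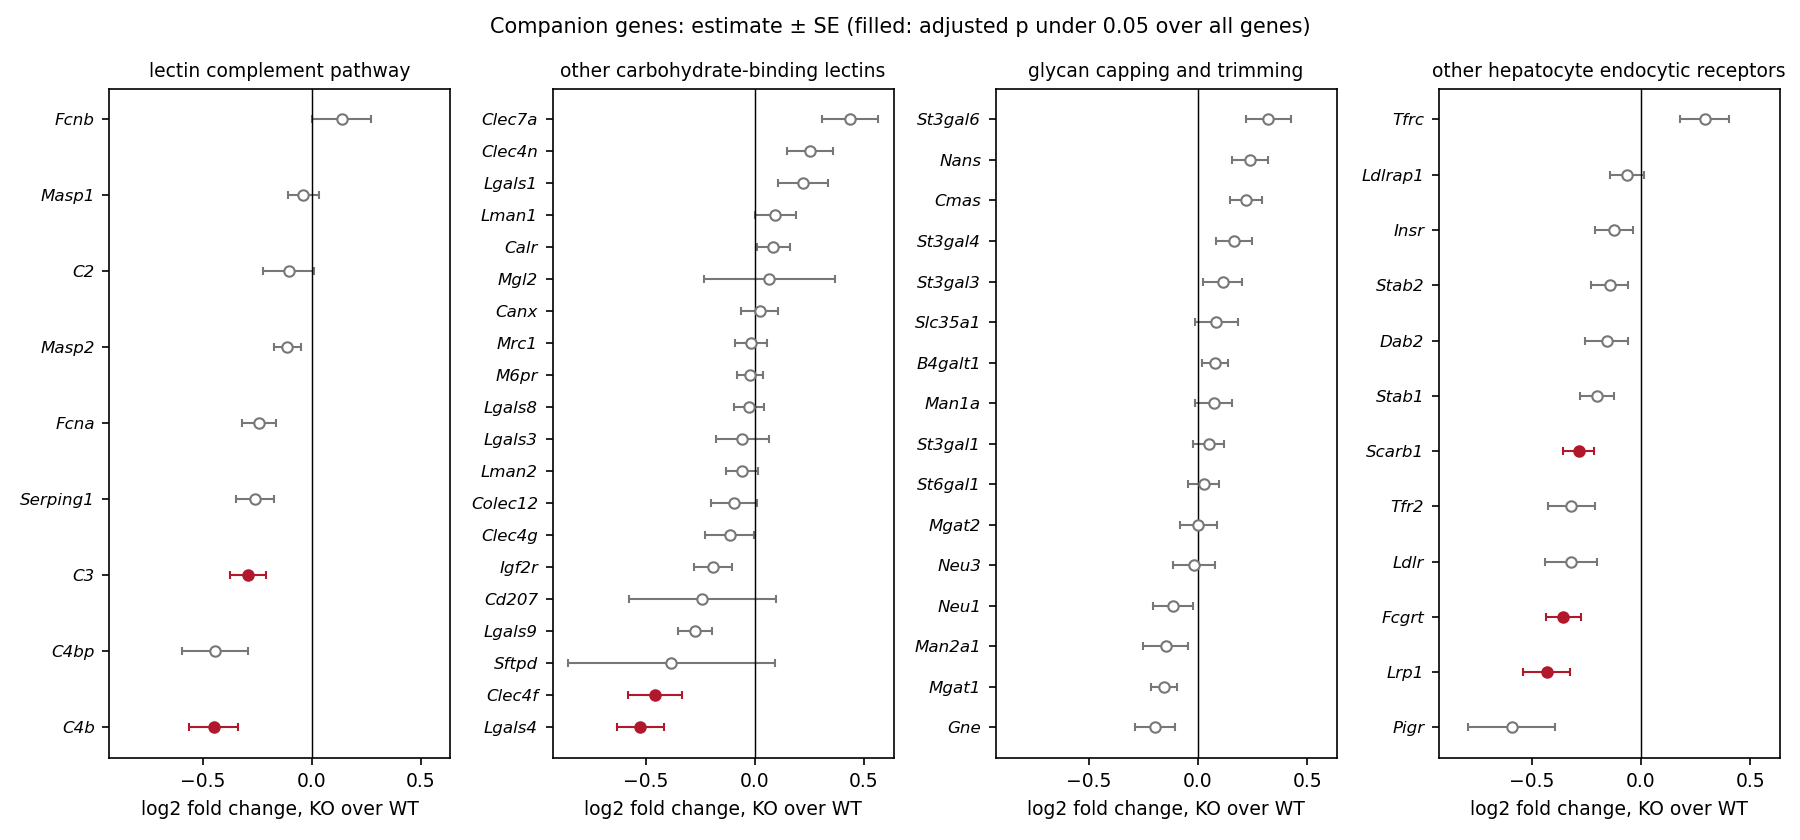
Log2 fold change of Mir483Pat-KO over WT for the 57 tested genes of the 4 lists (points, edgeR estimate; bars, ± SE; n = 5 each). Filled red points have an adjusted p under 0.05 over all genes tested: 7 are to the left of 0 and 0 to the right.

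**Figure D4:**
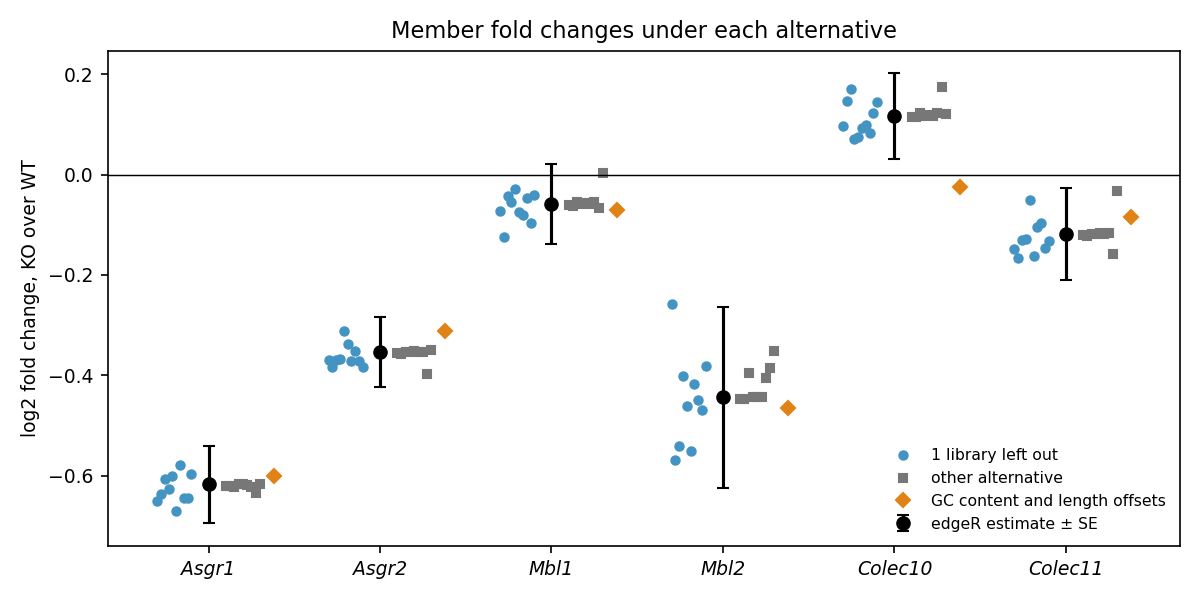
Log2 fold change of each member under each alternative (black, edgeR estimate ± SE; blue, 1 library left out; grey, other alternatives; orange, offsets for GC content and length). Asgr1 stays between -0.67 and -0.58 and Asgr2 between -0.40 and -0.31, Mbl2 spans -0.57 to -0.26, and Colec10 changes sign with the offsets. Mbl1 changes sign in the lower number range alone.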

How the data were processed

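PolyA RNA from 10 livers was sequenced. The authors made TruSeq libraries, aligned reads with STAR to GRCm38 and deposited raw, unnormalized counts for each Ensembl gene. Whether strand was used and how multi-mapped reads were handled is not given in the sources used here. The table held 0 columns of other samples, and 55141 of 55401 identifiers matched a symbol.

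The sample labels gave the groups. The test was run in edgeR 4.0.16 (R 4.3.3): filterByExpr, TMM scaling and the quasi-likelihood F-test without covariates, with Benjamini-Hochberg adjustment over 14098 genes and a threshold of 0.05. P-values measure the spread between fetuses and treat them as independent. The litter of each fetus was not given in the sources used here and was not modelled. DESeq2 1.42.0 and limma 3.58.1 were alternatives, as were RLE scaling, a robust fit, other filters (none, or at least 10 counts in every library), a replicate block, the description number range as a covariate, the lower range alone, offsets for GC content and length, longest transcript length for levels, and leaving out each library. Scripts were tested on simulated data. Every pair of replicates differed by more than sampling noise (chi-square per degree of freedom at least 4.54 over 20 pairs).

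Exons, 3′ UTRs and positions came from GENCODE M21, and microRNA and promoter sequences from RefSeq (GRCm38.p6), which gave promoters for 5 of the 6 members. Named were all members, every companion gene that passed plus Masp1, Masp2 and St6gal1, and for each member the 3 genes with the closest pattern among those with a mean log2 CPM of at least 1 (log2 CPM used a prior count of 2). Outside this rule, Cmas, Clec7a, Tfrc, Stab1 and Stab2 were named after their values were seen, as were the markers that passed. The members, lists and tests were chosen with earlier results of these data known. Of the other marker lists, sinusoidal endothelial, megakaryocyte, neutrophil and cholangiocyte, 0 genes passed by edgeR. One erythroid marker, Ahsp, was unmatched. One erythroid result is not reported here.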

Additional observations from a re-analysis of the deposited data

Results flagged for a closer look

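C3 in WT replicate 5 stood at 10439 CPM, apart from the other 4 WT libraries, of which the nearest was at 9417 CPM. The gap was 0.797 of the range of the group, above Dixon's 95% critical value. It was the 1 such library in 32 groups of 5 examined over the members and named companion genes, and chance flags about 1 in 20 groups.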

How the results depend on the processing

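Under all 20 alternatives the member log2 fold changes moved by less than the within-group SD of log2 CPM. Leaving out 1 library or changing the filter can hardly move an estimate that far, so no stability is read from this. The log2 fold change of Mbl2 ran from -0.57 to -0.26 and that of Colec10 from -0.024 to 0.18. Members lower at the threshold numbered 2, 3 (with Mbl2) without a low-count filter, with the replicate block and without WT replicate 2, and 0 in the lower number range alone, which holds 6 libraries. Nothing is read from these calls, since the contrast was known when the members were chosen. Replicate numbers were not treated as pairs, so the block was only an alternative. Correlations of same-numbered deviations were -0.050 to 0.261, with a mean of 0.087 against -0.022 for other pairs. With the block 11 companion genes were lower and 3 higher, and 596 and 742 of all genes, against 7 and 0, and 389 and 342. Without a low-count filter these counts were 11, 1, 625 and 633. With the number range as covariate 11 companion genes were lower, C3 no longer among them, and 1 higher, and 646 of all genes higher. In the lower range alone 0 companion genes, 20 genes lower and 3 higher passed. DESeq2 gave 2 companion genes higher, 609 genes lower and 551 higher, and the offsets for GC content and length 2 companion genes higher. Leaving out 1 library gave 1 to 9 companion genes lower, 0 to 1 higher, 192 to 475 genes lower and 87 to 389 higher. Mbl1 (0.0034) and Masp1 (0.014) changed sign in the lower range alone, and St6gal1 ranged from -0.027 to 0.052 with 1 library left out. With longest transcript lengths the WT levels were 100.6 CPM per kb for Asgr1 and 33.4 for Asgr2. Apart from the smaller number of libraries or genes in a setting, the cause was not tested. Colec11 had the fewest counts of the members, 232 to 370 per library, and the part of counting noise in its spread was not tested.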
